A study of Mus musculus with 8 samples.

Results

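The 10 genes described here are Adipoq, Plin1, Cidec, Fabp4, Cfd, Lpl, Retn, Pck1, Lipe and Car3, a set of white adipocyte genes measured in whole-lung RNA. They were taken by gene name from the 54532 genes of the deposited count table, all 10 were found, and all 10 were among the 17138 genes with enough reads to be tested. The libraries came from whole lungs of CC-LR mice, in which the club cell promoter CCSP drives Cre and Cre switches on an LSL-K-ras G12D allele in airway epithelium. All 8 mice carried this oncogenic allele on a C57BL/6 background, so no lung without K-ras G12D served as a baseline. The Control group had 4 mice, and a further 4 received TTI-101, a small-molecule inhibitor of the transcription factor STAT3, for 4 weeks. All were 14 weeks of age and each mouse gave 1 library. The genes were chosen with their values in this same contrast in view, so their levels and group differences are given as a description and not as a test.

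White adipocytes store triglyceride in a single large lipid droplet and release it as fatty acids between meals. Proteins such as perilipin 1 and CIDEC coat the droplet, lipases open and empty it, carrier proteins move the fatty acids, and the same cell secretes hormones such as adiponectin. Lung parenchyma holds few adipocytes, while fat is found around the heart, the mediastinum and the large airways. Several of the 10 genes are not restricted to fat: lipoprotein lipase is also made by cardiac muscle, macrophages and lung fibroblasts, and FABP4 by capillary endothelium and macrophages. In bulk RNA of this kind, fewer cells of a type and less RNA per cell cannot be told apart.

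The label of the set was read against genes that define adipocytes. Of these, Adipoq, Plin1 and Cidec are members of the set, so their reads cannot check the label. They had reads in all 8 libraries, with Adipoq at 2 reads in Control mouse 4, under the floor of 3 counts used here. Outside the set, Lep, which encodes the adipocyte hormone leptin, had between 0 and 16 counts and too few reads to be tested. Plin4, a further droplet coat protein of adipocytes, was at 5.24 to 33.4 CPM (counts relative to the library size adjusted by TMM). On a per-length scale (RPKM, CPM divided by the deposited gene length in kilobases), mean levels over the 8 libraries ran from 1.46 for Plin1 to 64.4 for Cfd, against 25473 for Sftpc, the surfactant protein C gene of alveolar type 2 cells. Ucp1, the uncoupling protein that marks brown fat, had 0 to 15 counts.

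Total counts ranged from 16075855 to 26873509 per library, and 1 read was worth between 0.0367 and 0.0640 CPM. Control mouse 4 stood apart: on the first principal component, which held 45.2% of the variance, it was at 101 while the other 7 libraries lay between -39.3 and 17.9. Its mitochondrial share of counts was 5.56%, against 2.01% to 2.85% in the others. Some results are therefore also given without this mouse, and others are given only with it.

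Because most of the 10 genes varied together across lungs, the DNA just upstream of 4 of them is shown, with the strand of the gene, from the RefSeq promoter table on GRCm38.p6. Adipoq starts after chr16:23146286-23146535 on the plus strand, Plin1 after chr7:79732904-79733026 on the minus strand, Cidec after chr6:113435761-113436010 on the minus strand and Pck1 after chr2:173152823-173153047 on the plus strand. Capitals mark a match to TTGCNNAA, a loose form of the site bound by C/EBP factors, which act in fat cell differentiation.
Adipoq: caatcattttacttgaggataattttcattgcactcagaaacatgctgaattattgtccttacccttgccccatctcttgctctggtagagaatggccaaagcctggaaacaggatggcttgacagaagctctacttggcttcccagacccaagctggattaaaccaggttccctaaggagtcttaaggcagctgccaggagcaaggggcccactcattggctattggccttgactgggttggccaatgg
Plin1: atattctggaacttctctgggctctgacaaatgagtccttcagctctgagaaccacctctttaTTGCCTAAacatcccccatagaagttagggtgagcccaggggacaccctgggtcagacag
Cidec: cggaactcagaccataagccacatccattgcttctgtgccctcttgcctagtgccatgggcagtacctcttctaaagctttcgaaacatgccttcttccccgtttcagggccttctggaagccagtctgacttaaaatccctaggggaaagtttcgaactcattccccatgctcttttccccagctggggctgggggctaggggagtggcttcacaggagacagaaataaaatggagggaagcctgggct
Pck1: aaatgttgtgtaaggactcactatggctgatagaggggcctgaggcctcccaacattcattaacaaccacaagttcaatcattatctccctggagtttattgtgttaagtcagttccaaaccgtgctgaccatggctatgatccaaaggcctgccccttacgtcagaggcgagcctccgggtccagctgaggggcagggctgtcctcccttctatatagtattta

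The table held 9 promoters for 7 of the 10 genes and none for Fabp4, Lpl and Car3. In the 250 bases before each RefSeq start, searched on both strands, TTGCNNAA was found in 2 of the 9, against 9.56% of all 32851 promoters. Plin1 held it 187 to 180 bases and again 58 to 51 bases before its RefSeq start. That start lies inside the annotated gene, while the Plin1 stretch printed above ends at the gene's edge. The first match is the one in capitals, and the second falls within the annotated gene. A second Cidec promoter held it 198 to 191 bases before its start. AGGTCA, the nuclear receptor site that PPARG and its partner bind, was in 0 of 9 against 14.0% of all promoters. The direct repeat of AGGTCA with 1 base between the copies, which contains AGGTCA, was in 0 of 9 against 0.0335%, and TATAAA was in 0 of 9 against 12.4%. These matches describe letters in a short window and say nothing of binding.

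The adipokines come first. Adipoq (ENSMUSG00000022878, chromosome 16, 23146536 to 23158028), which encodes the insulin-sensitising hormone adiponectin, was at 3.60, 3.83, 0.333 and 0.128 CPM in Control mice 1 to 4 and at 10.1, 11.7, 11.0 and 1.52 CPM in TTI-101-treated mice 1 to 4. Treated mice 1, 2 and 3 lay above every Control mouse, while treated mouse 4 lay between the Control mice, so the groups overlapped. The lowest of these values rest on few reads: 6 reads in Control mouse 3 (exact Poisson 95% interval 0.122 to 0.725 CPM), 2 reads in Control mouse 4 (0.0155 to 0.462 CPM) and 25 reads in treated mouse 4 (0.984 to 2.24 CPM), and these intervals cover counting error only. The Control mean was 1.97 ± 2.01 CPM and the treated mean 8.58 ± 4.75 CPM (SD over 4 mice each). The log2 fold change from edgeR was 2.10 (standard error 0.87).

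Cfd (ENSMUSG00000061780, chromosome 10, 79890853 to 79892655) encodes adipsin, the protease of the alternative complement pathway that fat secretes. It was at 30.7, 61.6, 11.6 and 4.73 CPM in Control mice 1 to 4 and at 74.9, 163, 110 and 18.0 CPM in treated mice 1 to 4. The order of the mice was the same as for Adipoq (Spearman's rho 1 over 8 libraries), with treated mouse 4 again among the Control mice, and the log2 fold change was 1.75 (standard error 0.76). Per length, Cfd was the most abundant of the 10 genes, at 5.13 to 177 RPKM across libraries.

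Retn (ENSMUSG00000012705, chromosome 8, 3655770 to 3660110), the gene of the adipocyte hormone resistin, was at 2.75, 4.60, 1.33 and 0.895 CPM in Control mice 1 to 4 and at 5.92, 9.97, 4.17 and 1.03 CPM in treated mice 1 to 4. Here 2 treated mice lay above every Control mouse, and treated mouse 4 was lower than all Control mice except mouse 4. The log2 fold change was 1.13 (standard error 0.64), and 0.64 without treated mouse 2.

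Among the droplet coat genes, Plin1 (ENSMUSG00000030546, chromosome 7, 79720218 to 79732903), whose product perilipin 1 guards the droplet against lipases, was at 4.55, 5.32, 0.499 and 0.448 CPM in Control mice 1 to 4 and at 12.2, 9.97, 19.1 and 2.37 CPM in treated mice 1 to 4. Treated mice 1 to 3 were above all Control mice and treated mouse 4 lay between Control mice 1 and 3. The log2 fold change was 2.00 (standard error 0.80).

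Cidec (ENSMUSG00000030278, chromosome 6, 113424634 to 113435760), whose product fuses small droplets into large ones, was at 13.0, 14.4, 10.1 and 3.39 CPM in Control mice 1 to 4 and at 21.5, 21.6, 30.4 and 14.0 CPM in treated mice 1 to 4. Treated mouse 4 lay just below Control mouse 2, and the other treated mice were above all Control mice. Cidec spread less than Adipoq or Plin1, 8.97-fold from the lowest to the highest library against 91.5-fold and 42.7-fold. The fold for Adipoq rests on the 2 reads of Control mouse 4, and its exact 95% counting interval is 25.0 to 761. Its log2 fold change was 1.09 (standard error 0.39).

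The lipases differed from the rest. Lipe (ENSMUSG00000003123, chromosome 7, 25379527 to 25398710), which encodes hormone-sensitive lipase, was at 46.2, 90.3, 79.6 and 47.7 CPM in Control mice 1 to 4 and at 53.6, 137, 83.4 and 66.7 CPM in treated mice 1 to 4. Only treated mouse 2 was above every Control mouse, and the log2 fold change was 0.37 (standard error 0.31). It was 0.055 without treated mouse 2, 0.23 without Control mouse 1 and 0.56 without Control mouse 2. The antisense gene 4732471J01Rik overlaps Lipe on the opposite strand with 16 to 57 counts per library, and the strand setting of the counting is not given in the sources used here.

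Lpl (ENSMUSG00000015568, chromosome 8, 68880491 to 68907448), the lipase that frees fatty acids from circulating lipoproteins, was at 283, 285, 189 and 114 CPM in Control mice 1 to 4 and at 270, 300, 194 and 226 CPM in treated mice 1 to 4. The groups lay over each other, with the lowest value in Control mouse 4, and the log2 fold change was 0.18 (standard error 0.28). Without Control mouse 4 it was -0.017, so the direction for Lpl rested on that library, and leaving out other single mice gave values from 0.093 (treated mouse 2) to 0.35 (Control mouse 2).

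Fabp4 (ENSMUSG00000062515, chromosome 3, 10204088 to 10208576), the fatty acid carrier of adipocytes, was at 16.0, 27.3, 12.4 and 4.03 CPM in Control mice 1 to 4 and at 35.0, 72.7, 33.8 and 9.24 CPM in treated mice 1 to 4. Treated mice 1 to 3 lay above all Control mice and treated mouse 4 below Control mice 1, 2 and 3. The log2 fold change was 1.33 (standard error 0.61), and 0.81 without treated mouse 2. Its deposited length spans the whole gene, introns included, so its RPKM of 5.86 is too low beside the other genes.

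Of the metabolic enzymes, Pck1 (ENSMUSG00000027513, chromosome 2, 173153048 to 173159273), the cytosolic PEP carboxykinase that supplies glycerol for triglyceride in fat and glucose in liver, was at 1.06, 3.89, 0.777 and 0.640 CPM in Control mice 1 to 4 and at 9.72, 17.1, 28.9 and 2.49 CPM in treated mice 1 to 4. Treated mouse 4 was above Control mice 1, 3 and 4 and below Control mouse 2. With means of 1.59 ± 1.54 and 14.5 ± 11.2 CPM (SD, n = 4 each), Pck1 had the largest log2 fold change of the 10, 3.20 (standard error 0.76).

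Car3 (ENSMUSG00000027559, chromosome 3, 14863512 to 14872523), a carbonic anhydrase abundant in fat and slow muscle, was at 29.4, 40.2, 8.21 and 2.11 CPM in Control mice 1 to 4 and at 87.9, 82.9, 92.1 and 15.3 CPM in treated mice 1 to 4. Treated mice 1 to 3 lay close together, and treated mouse 4 was lower than Control mice 1 and 2. The log2 fold change was 1.80 (standard error 0.77).

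**Figure D1:**
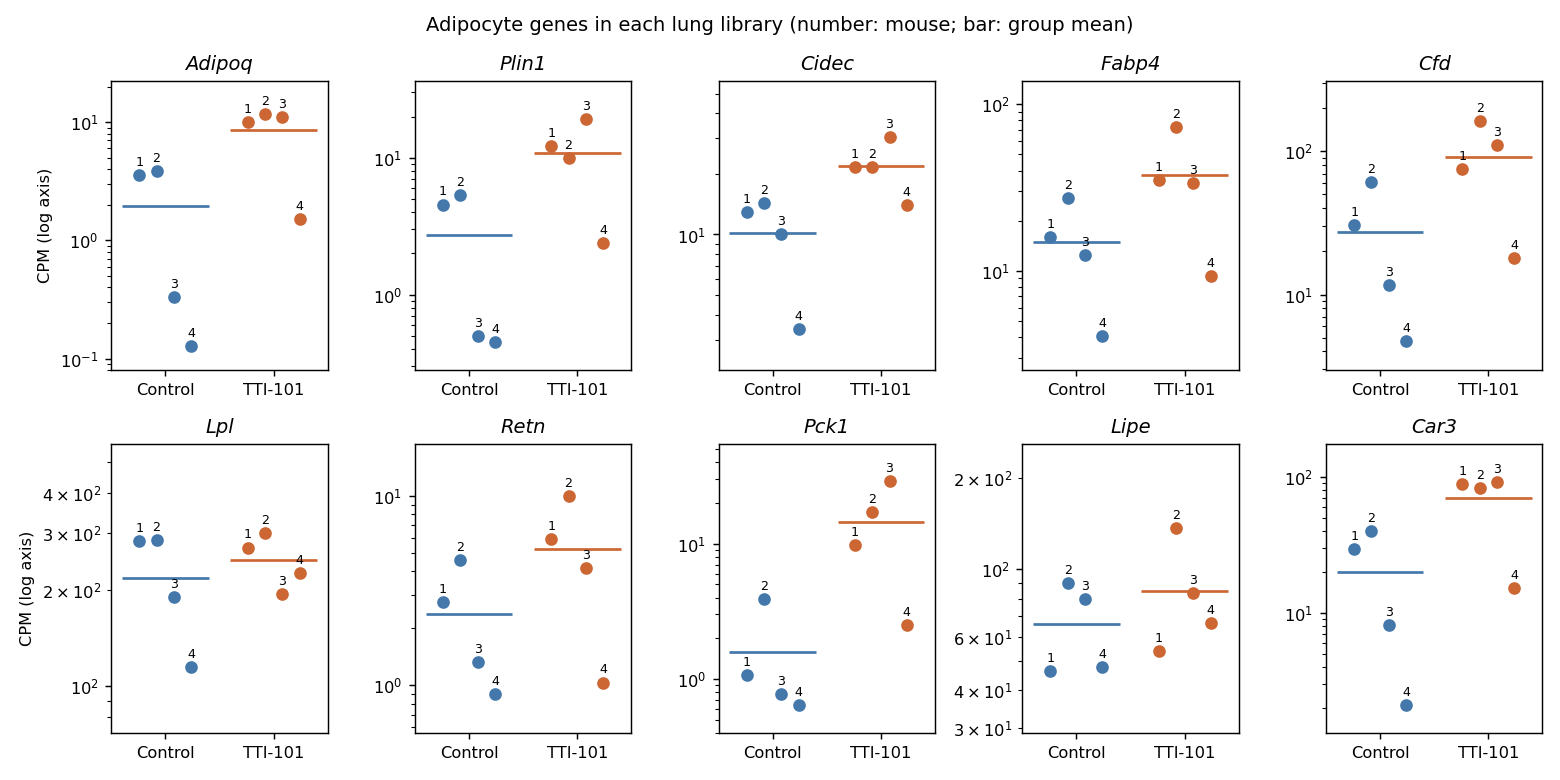
CPM of each of the 10 genes on log axes, with 1 point per mouse (numbered) and a bar for the mean of the 4 Control or 4 TTI-101 libraries. Control mice 3 and 4 and treated mouse 4 are the 3 lowest libraries for Adipoq, Plin1, Fabp4, Cfd, Retn and Car3, while Lpl spans 2.62-fold and Lipe 2.96-fold.

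Across the 10 genes, the mean was higher in TTI-101-treated lungs for all 10, with a median log2 fold change of 1.54, which describes the choice of genes since they were picked from this contrast. The 17138 tested genes had a median of 0.0034 and 50.6% lay above 0. The groups overlapped for 10 of 10 genes, and over all tested genes 1.53% had every treated library above every Control library and 1.43% had every one below. For 7 of the 10, treated mice 1 to 3 lay above all Control mice and treated mouse 4 did not. The share of all tested genes with this weaker pattern was not counted, so the 7 have no background beside them. Control mouse 4 was the lowest library for 9 genes, Lipe being the exception, and the highest library was treated mouse 2 for 6 genes and treated mouse 3 for 4. At an adjusted p under 0.05, edgeR called 0 of the 17138 genes (0%), the members included, with 1132 genes (6.61%) at an unadjusted p under 0.05 and 4 genes called by DESeq2. Without Control mouse 4 the median of the 10 was 1.22 with 9 of 10 above 0, and over all 8 fits with 1 library left out it lay between 1.22 and 2.08. Without that mouse the log2 fold change was 2.96 for Pck1, 1.73 for Adipoq, 1.66 for Plin1, 1.43 for Car3 and 1.41 for Cfd. It was 1.03 for Fabp4, 0.87 for Retn, 0.81 for Cidec, 0.25 for Lipe and -0.017 for Lpl.

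**Figure D2:**
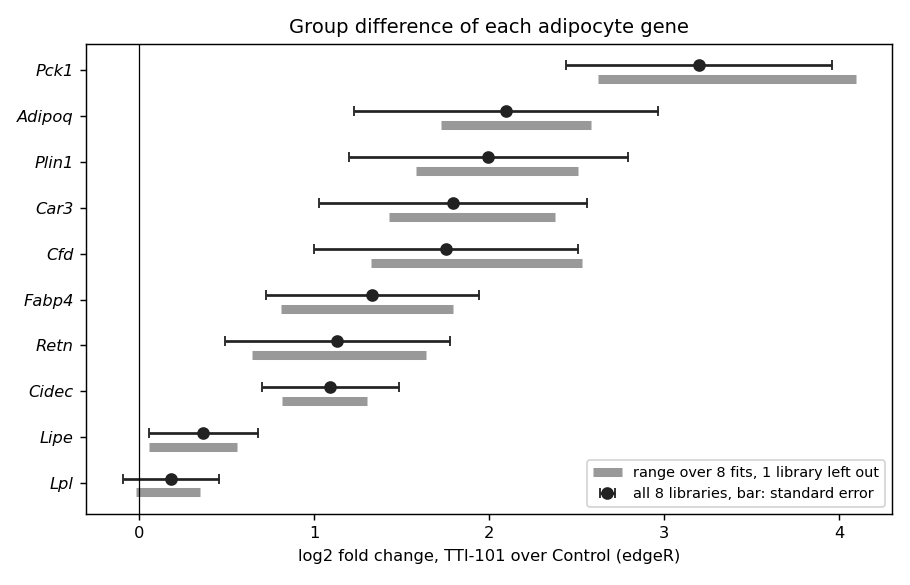
Log2 fold change of TTI-101 over Control from edgeR for each gene (points, with standard errors) and the range over the 8 fits that each left out 1 library (grey bars). Pck1 is highest at 3.20 with a range of 2.62 to 4.10, and Lpl is lowest at 0.18 with a range from -0.017 to 0.35.

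By mean RPKM over all 8 libraries, the genes ranked Cfd, Lpl, Car3, Lipe, Cidec, Fabp4, Adipoq, Retn, Pck1 and Plin1, from 64.4 to 1.46, with the place of Fabp4 uncertain because of its deposited length. The order differed between groups: Car3 was below Lipe in Control (6.97 and 11.2 mean RPKM) and above Lpl in treated lungs (24.3 and 23.6). Every neighbouring pair in the order over all libraries had overlapping ranges over the 8 libraries, so no step in it was larger than the spread between mice.

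The spread between mice of one group was wide for most of the genes. On the log2 scale the within-group SD of Adipoq was 1.78, larger than that of 99.7% of the 15917 genes with a mean of at least 1 CPM. Car3 (1.62), Plin1 (1.56) and Cfd (1.50) were above 99.5%, 99.4% and 99.3% of genes, followed by Pck1 (1.31), Fabp4 (1.19) and Retn (1.18). Cidec (0.74), Lipe (0.54) and Lpl (0.48) were above 92.0%, 79.9% and 74.3% of genes. Leaving out Control mouse 4 kept Adipoq at 1.61 and Car3 at 1.23, above 99.7% and 99.3% of genes, and lowered Cidec to 0.37 and Lpl to 0.31, above 68.9% and 57.7%.

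The genes varied together from mouse to mouse. Over the 8 libraries, which share their depth and composition between genes, Pearson's r of log2 CPM with Adipoq was 0.99 for Plin1, 0.99 for Car3, 0.97 for Cfd, 0.91 for Cidec, 0.91 for Fabp4, 0.89 for Retn and 0.88 for Pck1. With the group means removed these values were 0.97, 0.98, 0.95, 0.84, 0.87, 0.89 and 0.78, so the shared pattern was also present within groups. Without the 2 libraries farthest from the median of Adipoq, Control mice 3 and 4, they ran from 0.83 for Pck1 to 0.99 for Car3. Lipe had an r of 0.41 with Adipoq. Lpl had an r of 0.76, which dropped to 0.05 without the 2 libraries and so rested on them. Among the 28 pairs without Lpl and Lipe, r lay between 0.74 (Cidec and Retn) and 0.99, with a median of 0.90.

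**Figure D3:**
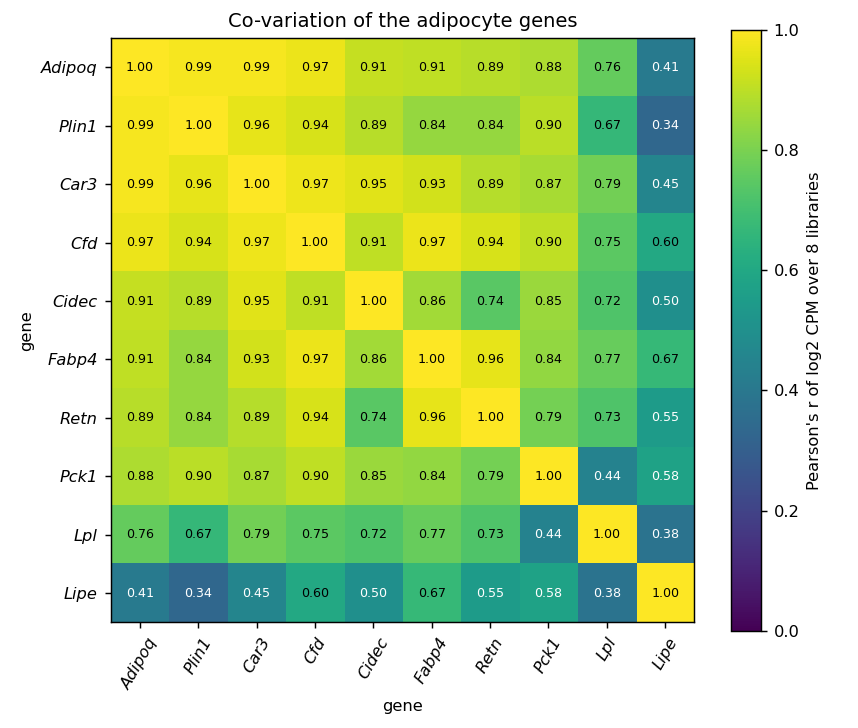
Pearson's r between log2 CPM of each pair of the 10 genes over the 8 libraries, by colour and number. The first 8 genes form a block of r between 0.74 and 0.99, and Lipe has the lowest values, down to 0.34 with Plin1.

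Ratios of counts to Adipoq within a library differed in how steady they were. Plin1 lay between 0.851 and 3.50 times Adipoq, Car3 between 7.08 and 24.7 times and Cfd between 7.42 and 37.0 times. The ratios ran more widely for Cidec (1.84 to 30.3), Fabp4 (3.07 to 37.2), Retn (0.379 to 7) and Pck1 (0.296 to 5), and most widely for Lipe (5.31 to 373) and Lpl (17.6 to 895). All of the highest ratios were in Control mouse 3 or 4, where Adipoq had 6 and 2 reads.

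The families of the 10 genes were examined next. The family counts include the members, which were picked from this contrast. Of 8 perilipin and CIDE genes tested, 4 had a higher mean in treated lungs, Plin1 and Cidec among them, and 4 a lower mean. Outside Plin1 and Cidec, Plin2, which coats droplets in most cells, was at 121 ± 6.30 and 129 ± 24.8 CPM (SD, n = 4 each, log2 fold change 0.10), and Plin3 at 91.3 ± 12.0 and 85.2 ± 9.49 CPM (-0.10). In the fatty acid binding protein family, 5 of 10 genes were tested, 4 higher, Fabp4 among them, and 1 lower. Fabp5, the epidermal type also made by macrophages, was at 85.9 ± 43.1 and 84.8 ± 25.5 CPM (-0.02). Fabp3, the heart type, was at 11.0, 26.5, 22.7 and 0.384 CPM in Control mice 1 to 4 and at 17.5, 37.1, 17.4 and 14.2 CPM in treated mice 1 to 4, lowest in Control mouse 4 and highest in treated mouse 2. Of 3 resistin family genes tested, Retnla, which alternatively activated macrophages and airway cells make, was at 271, 388, 840 and 971 CPM in Control mice 1 to 4 and at 83.0, 1139, 83.7 and 134 CPM in treated mice 1 to 4 (log2 fold change -0.78, standard error 0.83). Treated mice 1, 3 and 4 lay below every Control mouse and treated mouse 2 above all of them. Retnlg, a neutrophil gene, was at 10.7 ± 5.57 and 19.3 ± 9.03 CPM (0.84, standard error 0.46). Of 12 carbonic anhydrase genes, 8 were higher, Car3 among them, and 4 lower. Car14, a membrane-bound form, was at 7.16 ± 2.84 and 13.7 ± 4.05 CPM (0.93, standard error 0.33, adjusted p = 0.657 from edgeR), and Car4 of capillary endothelium at 161 ± 56.7 and 196 ± 29.2 CPM (0.29). Among the lower ones, Car8 was at 178 ± 92.5 and 133 ± 24.5 CPM (-0.42, standard error 0.33).

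Genes that act with the 10 were listed apart. Of 14 receptors, partners and regulators, 9 were higher and 5 lower, and 2 passed an unadjusted p of 0.05 in the higher direction, against 3.02% of all tested genes. These were Cdh13, the adiponectin-binding T-cadherin, at 31.2 ± 8.56 and 44.9 ± 6.09 CPM (log2 fold change 0.52, standard error 0.21), and Cfb, the complement factor B that adipsin cleaves, at 0.443 ± 0.253 and 1.14 ± 0.397 CPM (1.31, standard error 0.48). Both had an adjusted p of 0.657 from edgeR. The adiponectin receptors Adipor1, at 209 ± 8.43 and 215 ± 20.1 CPM (0.04), and Adipor2, at 180 ± 18.6 and 158 ± 13.6 CPM (-0.19), did not pass. Of 12 droplet and lipolysis genes used by many cells, 7 were higher and 5 lower. Mgll, the lipase that takes the last fatty acid from glycerol, was at 69.6 ± 27.2 and 116 ± 19.0 CPM (0.74, standard error 0.28, adjusted p = 0.657). Gpihbp1, the capillary anchor of lipoprotein lipase, was at 89.3 ± 35.8 and 120 ± 9.03 CPM (0.42).

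A wider list of 33 white adipocyte genes outside the 10 was used to ask whether the pattern extended to the rest of the programme. Of these, 30 were tested, 18 were higher and 12 lower, and the median log2 fold change was 0.10. In the higher direction 2 passed an unadjusted p of 0.05 (3.02% of all tested genes did) and in the lower direction 1 (3.58%), none at an adjusted p under 0.05. Thrsp, a regulator of lipogenesis, was at 7.23, 6.40, 3.55 and 2.37 CPM in Control mice 1 to 4 and at 15.9, 13.0, 10.2 and 4.38 CPM in treated mice 1 to 4 (log2 fold change 1.15, standard error 0.43, adjusted p = 0.657). Its 3 lowest libraries were Control mice 3 and 4 and treated mouse 4, as for Adipoq. Pnpla2, the adipose triglyceride lipase, was at 147 ± 27.4 and 196 ± 21.5 CPM (0.41, standard error 0.17), and Me1, the malic enzyme that supplies NADPH for fatty acid synthesis, was lower at 185 ± 62.1 and 126 ± 19.0 CPM (-0.56, standard error 0.22), both with an adjusted p of 0.657.

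The list split by its course over the libraries. With the mean log2 CPM of Adipoq, Plin1 and Cidec, 9 of the 30 genes had an r above 0.7, against 10.4% of all tested genes, and 12 had an r below 0. On the high side were Thrsp (0.95), Mrap (0.87), Pnpla2 (0.86), the insulin-regulated glucose transporter Slc2a4 (0.85), the adrenergic receptor Adrb3 (0.85), Tusc5 (0.83), Dgat2 (0.82), Plin4 (0.79) and Nrg4 (0.77). The low side included genes of fatty acid synthesis and its control that alveolar type 2 cells also use to make surfactant: Me1 (-0.75), Elovl6 (-0.74), Cebpa (-0.64), Scd1 (-0.56), Fasn (-0.48) and Srebf1 (-0.37). It also held Sncg (-0.43), Acaca (-0.36), Gpd1 (-0.36), Acly (-0.35), Acsl1 (-0.19) and Lgals12 (-0.0025), not all of them genes of that kind. With the mean of 7 alveolar type 2 genes, r was 0.95 for Me1, 0.81 for Srebf1, 0.80 for Fasn, 0.79 for Cebpa and 0.76 for Scd1. It was 0.81 for Sncg and 0.65 for Gpd1, but -0.03 for Acsl1 and -0.27 for Lgals12. Pparg, the master regulator of fat cells that macrophages and epithelium also express, was near 0 in both (0.02). Control mouse 4 was the highest library for 11 of the 30 genes and the lowest for 12. It was the highest for every gene named on the low side except Acsl1 and Lgals12, with Scd1 at 8423 CPM and Fasn at 1332 CPM. The same mouse was the lowest for Adipoq, Plin1 and Cidec. All r here include it, so how far the split rests on that mouse was not tested.

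**Figure D4:**
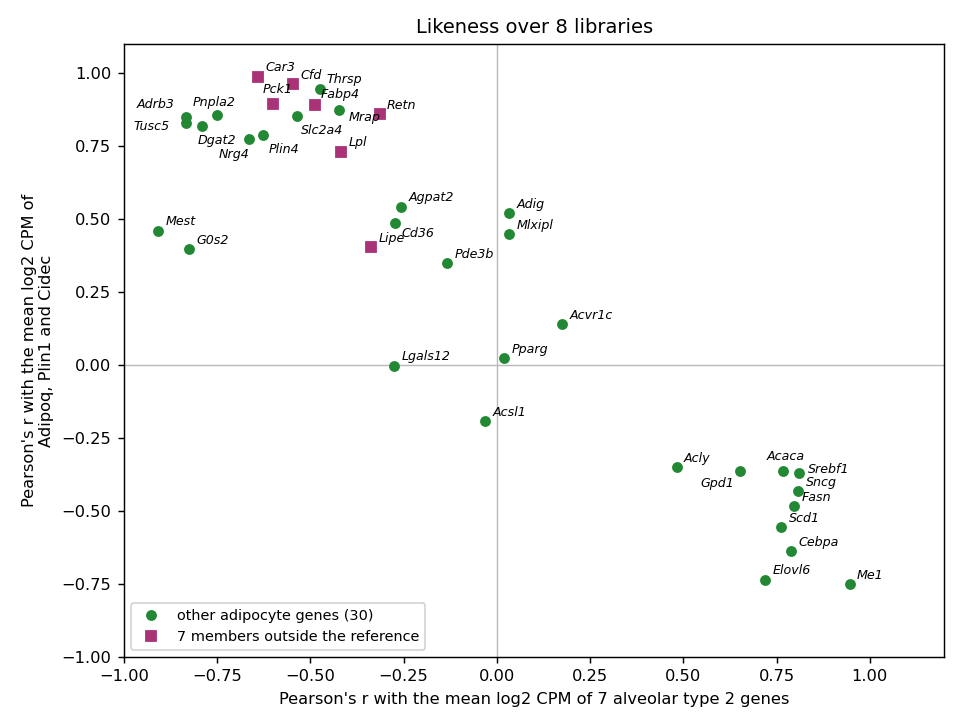
Each point is a gene, placed by Pearson's r over the 8 libraries with 7 alveolar type 2 genes (horizontal) and with Adipoq, Plin1 and Cidec (vertical). Adipoq, Plin1 and Cidec themselves are not plotted. Thrsp at 0.95 and Mrap at 0.87 lie at the upper left with Fabp4, Cfd, Retn, Pck1 and Car3. Lpl (0.73) and Lipe (0.40) lie lower, and Me1, Cebpa, Scd1 and Fasn lie at the lower right.

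Genes of tissues next to or within the lung were read in the same libraries, and their part in the values of the 10 genes was not tested. For cardiac muscle, the summed level of 10 markers was 106 to 982 CPM in Control and 689 to 1783 CPM in treated libraries, lowest in Control mouse 4 and highest in treated mouse 2. With Control mouse 4 included, all 10 had a higher mean in treated lungs and none passed an unadjusted p of 0.05. Their mean had an r of 0.71 with Adipoq, Plin1 and Cidec (0.62 with the group means removed). Myh6, the atrial and adult ventricular myosin of the mouse, was at 0.959 CPM in Control mouse 4 and at 151 to 649 CPM in the other 7 mice. For mesothelium, the lining of the lung surface and pericardium, 7 markers summed to 23.0 to 230 CPM in Control and 160 to 295 CPM in treated libraries (r 0.84, within groups 0.80), again lowest in Control mouse 4, with all 7 means higher and none past an unadjusted p of 0.05. Control mice 1 to 3 were at 457 to 982 CPM for the cardiac list and 119 to 230 CPM for the mesothelial list, overlapping the treated libraries. The directions and r of both lists include Control mouse 4 and are not given without it. Treated mouse 4, low for Adipoq, was at 689 CPM for the cardiac list, near the 706 and 799 CPM of treated mice 3 and 1, and at 160 CPM for the mesothelial list, near the 164 and 166 CPM of treated mice 1 and 2.

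Cells of the lung itself followed Control mouse 4 as well. The directions and r in this paragraph include that mouse and are not given without it. Summed lipofibroblast markers (7 genes) were at 674 to 1943 CPM in Control and 1354 to 2327 CPM in treated libraries (r 0.77, within groups 0.64), and capillary endothelium (10 genes) at 1134 to 3077 and 2384 to 4355 CPM (r 0.70, within groups 0.53), all higher in mean and none past an unadjusted p of 0.05. By summed CPM of both lists treated mouse 4 was the highest library, while it was the lowest treated library for 8 of the 10 adipocyte genes, all but Lpl and Lipe. Alveolar macrophage genes (8, of which 6 higher) had an r of 0.66 (within groups 0.59). The 7 alveolar type 2 genes summed to 41281 to 73510 CPM in Control and 32283 to 58502 CPM in treated libraries, all 7 lower in mean, none past an unadjusted p of 0.05, with an r of -0.61 (within groups -0.42) and the highest library in Control mouse 4. Of 8 brown fat genes tested, 3 were higher and 5 lower (r 0.28, within groups 0.24), Prdm16 being lower at 37.4 ± 6.82 and 28.5 ± 2.82 CPM (-0.39, standard error 0.16, adjusted p = 0.657).

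**Figure D5:**
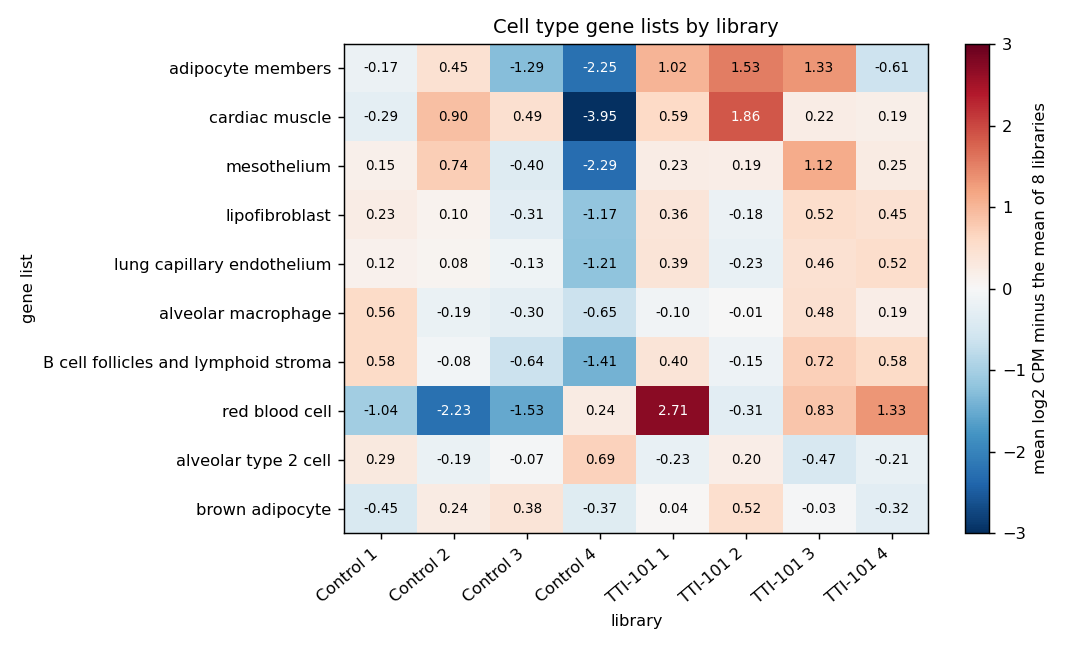
Mean log2 CPM of each gene list in each library, minus its mean over the 8 libraries. The adipocyte genes run from -2.25 in Control mouse 4 to 1.53 in treated mouse 2, and the cardiac list from -3.95 in Control mouse 4 to 1.86 in treated mouse 2, while in treated mouse 4 the adipocyte genes are at -0.61 and the cardiac list at 0.19.

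Over 15907 other genes with a mean of at least 1 CPM, the 10 whose course was most like the mean of Adipoq, Plin1 and Cidec over the 8 libraries were Aoc3 (r 0.99), Pxk (0.97), Nap1l5 (0.96), Rarres1 (0.96), Gm16499 (0.95), Tesc (0.95), Thrsp (0.95), Crb2 (0.94), Lrrc32 (0.94) and Ppil2 (0.94). Aoc3, an amine oxidase abundant in adipocytes and vascular smooth muscle, was at 12.2, 12.0, 7.88 and 5.82 CPM in Control mice 1 to 4 and at 19.9, 16.9, 18.6 and 10.9 CPM in treated mice 1 to 4. As for Adipoq, treated mice 1 to 3 were above all Control mice and treated mouse 4 was not.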

How the data were processed

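Whole-lung RNA of 8 CC-LR mice, 4 of them given TTI-101, was sequenced by a commercial provider after poly(A) selection, with paired ends, and processed with the provider's pipeline. The submitters' processing notes name STAR, DESeq2 and mm10. The counting tool, its strand setting and the annotation are not given in the sources used here. The authors deposited whole-number counts per gene without normalization, with gene lengths and coordinates. Of the 54532 gene identifiers, 54495 were in GENCODE M21 and 53585 had the same start and end there.

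From these counts, edgeR 4.0.16 in R 4.3.3 (filterByExpr with a minimum count of 10, TMM, robust quasi-likelihood F-test, Benjamini-Hochberg adjustment over 17138 genes) compared the groups without covariates. Standard errors were derived from the F statistic. CPM values were scaled by TMM, RPKM values used the deposited length, and log2 CPM used a prior count of 2. Correlations were computed on log2 CPM and are descriptive. Replicates are separate mice as far as the labels say. DESeq2 1.42.0, limma-voom (limma 3.58.1), other scalings and filters, a block for the replicate number and each library left out were the alternatives, and the within-group SD without Control mouse 4 was added after seeing the data. The fits were tested on simulated data with the same dispersion for every gene. This does not show how they perform at the wide spread of the 10 genes. Tables and plots were made with Python 3.11.15, pandas 2.3.3 and matplotlib 3.10.9.

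The members and all gene lists were chosen with earlier results of these data known. The text names all members, list genes with an unadjusted p under 0.05, some of the 3 genes highest in mean CPM of their list (the rule took all 3, and those that no statement turns on are left out), the 10 genes most like the mean of Adipoq, Plin1 and Cidec, and, outside this rule, genes that check the label and genes singled out after their values were seen (Lep, Ucp1, Adipor1, Adipor2, Ccl21a, Cxcl13 and those placed by their r in the wider adipocyte list).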

Additional observations from a re-analysis of the deposited data

Results flagged for a closer look

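In 13 of 62 groups of 4 libraries tested, the highest or lowest library lay apart from the other 3 by more of the group's range than Dixon's criterion allows. About 3.1 would be flagged if the groups were independent and normally distributed. The groups come from the same libraries, and some lists hold genes of the 10, so the excess over 3.1 is not a test. Among the 10 adipocyte genes, Adipoq in treated mouse 4 was at 1.52 CPM against 10.1 to 11.7 CPM in the other treated mice (gap over range 0.842). Car3 in the same mouse was at 15.3 CPM against 82.9 to 92.1 CPM (0.880). Pck1 in Control mouse 2 was at 3.89 CPM against 0.640 to 1.06 CPM in the other Control mice (0.869).

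The other cases were summed levels of gene lists. Treated mouse 2 was high for cardiac muscle, at 1783 CPM against 689 to 799 CPM (0.900), for skeletal muscle, at 36.9 CPM against 15.6 to 18.5 CPM (0.867), for the resistin family, at 1155 CPM against 112 to 156 CPM (0.958), and for alveolar type 2 genes, at 58502 CPM against 32283 to 35426 CPM (0.880). It was low for lipofibroblast genes, at 1354 CPM against 2166 to 2327 CPM (0.835). Treated mouse 3 was high for mesothelium, at 295 CPM against 160 to 166 CPM (0.955). Treated mouse 4 was low for the fatty acid binding proteins, at 114 CPM against 161 to 164 CPM (0.931), and Control mouse 1 was high for them, at 177 CPM against 96.0 to 108 CPM (0.846). Control mouse 1 was also high for alveolar macrophage genes, at 1228 CPM against 458 to 525 CPM (0.912). Control mouse 4 was low for the droplet and lipolysis genes of many cells, at 524 CPM against 709 to 742 CPM (0.850). The causes of these differences were not tested.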

How the results depend on the processing

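The median log2 fold change of the 10 adipocyte genes, 1.54, lay between 1.22 and 2.08 under every alternative run, and a filter of at least 10 counts in every library kept 8 of the 10 (median 1.24). Lpl turned from 0.18 to -0.017 without Control mouse 4 and lay between -0.017 and 0.35 with 1 library left out; no other gene of the 10 changed direction. Genes at an adjusted p under 0.05 numbered 0 in edgeR, 4 in DESeq2 and 0 to 1 with 1 library left out. Genes at an unadjusted p under 0.05, 1132 in edgeR, numbered 1849 without a filter and 422 (without treated mouse 3) to 2498 (without treated mouse 2) with 1 library left out, with 2393 without Control mouse 1, 531 without Control mouse 4 and 711 without treated mouse 1. Of the 30 other adipocyte genes, 3 passed an unadjusted p of 0.05, and 1 (without treated mouse 1 or 3) to 7 (without Control mouse 2) did so with 1 library left out, with 5 without Control mouse 1 or treated mouse 4. Why these counts moved was not tested. Levels under about 1 CPM rest on few reads.

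The replicate numbers are shared by the groups. Deviations from the group means of same-numbered libraries had correlations of 0.39, 0.08, 0.16 and 0.07, and 2 of 4 libraries in each group correlated best with their own number. The deepest library of each group was number 1, at 26873509 counts in Control and 25920509 in treated mice. These values do not settle whether the numbers mark pairs. The labels do not say so, and the numbers were not taken as pairs. With a replicate block, edgeR gave 1298 genes past an unadjusted p of 0.05 and 0 past the same adjusted p, 6 of the 30 other adipocyte genes at an unadjusted p under 0.05, and a median of 1.62 for the 10 genes. The block lowered the standard errors of all 10 genes, from 0.61 to 0.14 for Fabp4, 0.76 to 0.33 for Cfd and 0.80 to 0.69 for Plin1. The standard errors given above thus depend on leaving the block out.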

Other observations

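Lists of other cell types are given here for their own values, and none of their genes passed an adjusted p of 0.05 in edgeR. All 5 red blood cell genes had a higher mean in treated lungs and 4 passed an unadjusted p of 0.05, against 3.02% of all tested genes in that direction. Hbb-bs, an adult beta-globin, was at 60.6, 31.0, 39.5 and 114 CPM in Control mice 1 to 4 and at 751, 97.8, 187 and 313 CPM in treated mice 1 to 4 (log2 fold change 2.46, standard error 0.61, adjusted p = 0.657), and this list had an r of 0.30 with Adipoq, Plin1 and Cidec over the 8 libraries and of -0.43 with the group means removed. The other 3 were Hba-a1 (log2 fold change 2.50, standard error 0.65), Hbb-bt (2.66, standard error 0.66) and Alas2, the first enzyme of haem synthesis in red cells (2.87, standard error 0.77). Near-identical globin genes share reads, so their separate values are uncertain. Of 6 B cell and lymphoid stroma genes tested, 4 were higher and 2 lower. All 4 higher genes had an unadjusted p under 0.05, against 3.02% of all tested genes in that direction. Cd79a of the B cell receptor was at 35.6 ± 13.9 and 88.9 ± 25.2 CPM (SD, n = 4 each, log2 fold change 1.32, standard error 0.31, adjusted p = 0.657). The other 3 higher genes were the B cell genes Ms4a1 (1.56, standard error 0.57) and Fcer2a (0.98, standard error 0.39) and the complement receptor gene Cr2 (1.22, standard error 0.53). The 2 lower were the chemokine genes Ccl21a (-0.83, standard error 0.79) and Cxcl13 (-0.27, standard error 0.41). Both liver-type genes tested were lower, Trf (transferrin) at 121 ± 75.4 and 45.1 ± 28.9 CPM (-1.42, standard error 0.50) and Alb (albumin) at 11.1 CPM in Control mouse 4 against 0.608 to 1.21 CPM in the other 7 mice. Their mean had an r of -0.81 with Adipoq, Plin1 and Cidec (-0.68 with the group means removed).

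Of 4 skeletal muscle genes tested, 1 was higher and 3 lower, and of 3 thymus genes 2 were higher and 1 lower, with no gene of either list at an unadjusted p under 0.05. Of 6 Schwann cell genes 3 were higher and 3 lower. Of 2 cartilage genes, Comp was higher at 0.204 ± 0.135 and 0.757 ± 0.182 CPM (1.85, standard error 0.52, adjusted p = 0.657) and Chad had a lower mean.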
